A study of Mus musculus with 4 samples.

Results

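The secreted proteins of goblet cells form a group of 9 genes among the 20962 genes counted on the exon blocks of the series. They were taken by their symbols in the mouse genome build mm9: Agr2, Spink4, Tff3, Fcgbp, Clca3, Zg16, Retnlb, Tff1 and Tff2. The gene that mm9 calls Clca3 is now named Clca1, and the gene that mm9 calls Clca1 is another family member. The rule used no measured value, but the genes were chosen with earlier results of these data known.

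RNA was sequenced on the SOLiD system from whole small intestine, sampled from the jejunum, and whole colon, sampled from its distal part, of untreated C57BL/6 mice aged 9 to 10 weeks and kept free of specific pathogens. Each tissue had 1 library by each of 2 protocols. In the cDNA fragmented protocol, polyadenylated RNA was copied into full-length cDNA by SMART template switching, amplified and then broken. In the RNA fragmented protocol, RNA that the labels give as depleted of ribosomal RNA was broken first and ligated with its strand kept. The study reports larger read totals and longer reads for its RNA fragmented libraries than those used here hold. There was no replicate of a tissue within a protocol. The study states that both tissues came from the same mice, but the mice behind each library are not named, and whether both protocols used RNA of the same mice is not stated. The bounds given in parentheses are 95% intervals that cover counting error only, and PCR copies are not independent molecules.

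Goblet cells make the mucus that coats the intestinal epithelium. Their granules release the gel-forming mucin Muc2 together with proteins that bind, cut or cross-link it, small trefoil peptides that aid repair of the epithelium, and proteins that act on bacteria. Goblet cells are more frequent in the colon than in the small intestine. In tissue RNA, fewer cells of a type and less RNA per cell cannot be told apart.

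The trefoil peptides carry a compact fold held by cysteines, present in a single copy in Tff1 and Tff3 and as a pair in Tff2. Below are the 30 coding bases from the first of the neighbouring cysteine codons of each fold of Tff2 and Tff1, shown because they tell which of these genes the reads could separate. Capitals mark the 12 positions where the 3 stretches hold the same base. Each stretch lies inside an exon of the coding sequence on the minus strand of mm9.
Tff2, first fold, chr17:31280090-31280119: TGCTGcTTTgactctagcgTCgctGgggTc
Tff2, second fold, chr17:31279178-31279207: TGCTGcTTTtccaacctgaTCtttGaagTg
Tff1, chr17:31299643-31299672: TGCTGtTTTgatgacagtgTCcggGgatTc

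The 2 folds of Tff2 matched at 16 of 30 positions, and its first fold and that of Tff1 at 19. At 35 bases, the length of a read, no start position of Tff3 or Tff2 had an exact copy elsewhere among the exon blocks. Tff1 was different. Its stretch occurs again, unchanged and on the same strand, at chr5:143286879-143286908 in the gene model Gm3090, and none of the 376 start positions inside the exon blocks of Tff1 was found once. Only uniquely placed reads were deposited, so the count of 0 on Tff1 in all 4 libraries, and of 0 on Gm3090, carries no information on the level of Tff1, and no level or limit is given for it.

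Fcgbp shares sequence with its neighbour 9530053A07Rik on the same chromosome. A 30-base stretch shows this, taken from the middle of a run of shared start positions that spans 43 bases. Longer shared runs were not excluded.
Fcgbp, chr7:28892436-28892465, and 9530053A07Rik, chr7:28943050-28943079, both plus strand: gtagcctggctgcttatactgcagcctgtc
Of 7267 start positions inside the exon blocks of Fcgbp, 6265 were found once, and 5468 were found once when a single mismatch was allowed. The neighbour itself held 5 reads in the RNA fragmented small intestine library and 9 in that of the colon. Exon blocks of Fcgbp also overlap Gm10935, which lies on the other strand, and the cDNA fragmented reads keep no strand. Of the RNA fragmented reads on Fcgbp, 11250 in small intestine and 11846 in colon, 0 lay on the other strand. The part of Gm10935 in the cDNA fragmented counts was not tested. Start positions of Agr2, Spink4, Clca3, Zg16 and Retnlb were found once throughout as exact matches. With a single mismatch allowed, 552 of the 559 of Retnlb were found once, the others being shared with Retnlg.

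The libraries held 22484041 and 24798934 uniquely placed reads for cDNA fragmented small intestine and colon, and 2035386 and 3478387 for the RNA fragmented ones. These were 29.0% and 29.8% of all reads by cDNA fragmented and 5.59% and 9.28% by RNA fragmented. Values by cDNA fragmented are therefore the more precise for most of the genes. Exceptions in small intestine are Tff2, with 1 read against 20, and Fcgbp, with 10279 against 11250. Defining genes of the tissues were highest where the labels put them: 8 of 8 enterocyte genes, Fabp1 and Sis among them, were over 3-fold higher in small intestine by both protocols, and 6 of 6 colonocyte genes, such as Car4 and Slc26a3, were over 3-fold higher in colon. Of all genes, 2.72% and 3.2% passed the 3-fold rule given below toward small intestine and colon by cDNA fragmented, and 3.72% and 6.6% by RNA fragmented. Car1 and Atp12a had 0 reads and Hoxb13 had 1 in cDNA fragmented small intestine. Reads placed on Lars2, a mitochondrial tRNA synthetase, took 13.7% of the RNA fragmented small intestine library and 5.35% of the colon one, against 0.0214% and 0.0397% by cDNA fragmented. They were piled on few positions: 277915 and 186260 reads on 348 and 369 start points, against 4822 and 9854 reads on 903 and 1125 by cDNA fragmented. The median gene with reads in both tissues was higher in colon relative to the number of uniquely placed reads, by 0.40 on the log2 scale in the cDNA fragmented and 0.34 in the RNA fragmented libraries. Ratios below are scaled to the uniquely placed reads, and those after removal of this shift are called median-of-ratios values.

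The 9 genes together made up 1.06% (small intestine) and 2.68% (colon) of what was uniquely placed by cDNA fragmented. By RNA fragmented they took 0.876% and 2.01%. The share was thus higher in colon in both protocols, but the genes that made it up differed. By RPKM, reads per 1000 bases of exon and 1000000 uniquely placed reads, Agr2 made up 39.5% of the summed level in colon by cDNA fragmented and 15.8% by RNA fragmented. Clca3 made up 2.70% and 42.3% in the same libraries. In small intestine Zg16 had the highest share by both protocols, 36.8% and 43.3%.

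**Figure D1:**
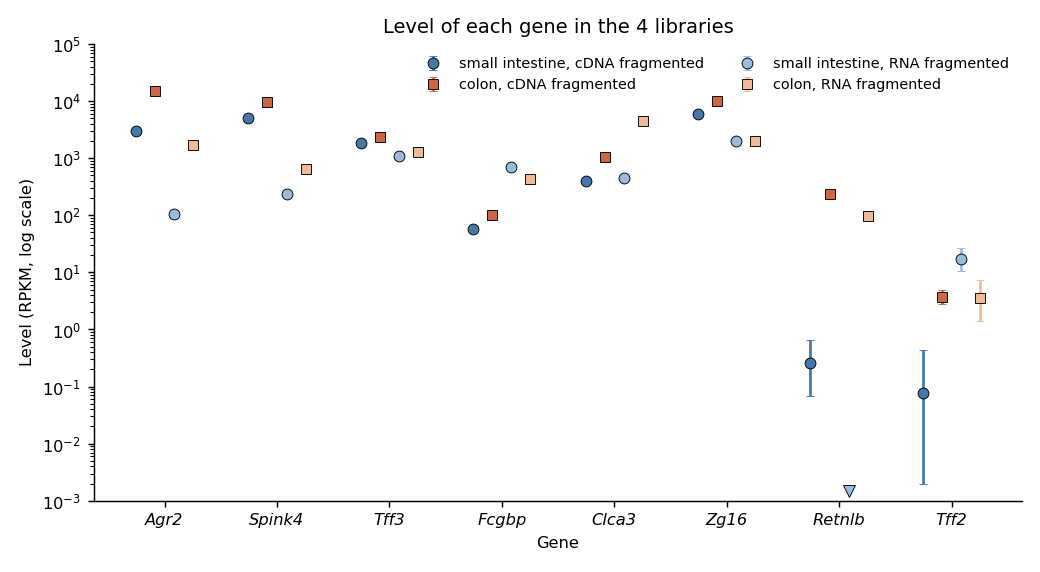
Level of 8 genes in RPKM on a log scale (vertical axis) in each of the 4 libraries; Tff1 is left out because no read could be placed on it uniquely. Points are libraries, bars are 95% counting intervals, and the triangle at the lower edge stands for Retnlb, with 0 reads in RNA fragmented small intestine. Agr2, Spink4, Clca3 and Retnlb lie higher in colon in both protocols, while Fcgbp and Tff2 lie higher in colon in the first and lower in the second.

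Agr2, anterior gradient 2, is a protein disulfide isomerase of the endoplasmic reticulum that is needed for mucin folding and is also secreted (chr12:36719512-36730668, plus strand, 8 exon blocks of 760 bases). By cDNA fragmented 51908 reads fell on it in small intestine and 287536 in colon, or 3038 and 15256 RPKM. By RNA fragmented it held 161 and 4454 reads, or 104 and 1685 RPKM. Colon was the higher tissue by both protocols, and in cDNA fragmented colon Agr2 ranked 4th of all genes. The ratio of colon to small intestine was 5.02 (4.98 to 5.07) by cDNA fragmented and 16.2 (13.8 to 19.1) by RNA fragmented. Each exon block with at least 3 reads in both libraries had a ratio above 1, between 4.11 and 5.87 in 8 blocks by cDNA fragmented and between 10.2 and 22.4 in 7 blocks by RNA fragmented. The difference was therefore spread along the transcript.

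Spink4 encodes a Kazal-type inhibitor of serine proteases (chr4:40867089-40878428, plus strand, 4 exon blocks of 393 bases). Its level was 5014 RPKM in small intestine and 9707 in colon by cDNA fragmented, and 233 and 658 RPKM by RNA fragmented. It was higher in colon by 1.94 times (1.91 to 1.96) and 2.83 times (2.42 to 3.33), and all 4 blocks had ratios above 1 in both protocols. Spink4 did not reach the 3-fold rule of the study in either protocol. The protocols differed more than the tissues: its level by cDNA fragmented was 21.6 times that by RNA fragmented in small intestine and 14.7 times in colon. For Agr2 these values were 29.2 and 9.05.

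Clca3 encodes a secreted metalloprotease that goblet cells release into mucus (chr3:144667501-144695740, minus strand, 14 exon blocks of 2935 bases). The cDNA fragmented libraries gave 26428 reads in small intestine and 75728 in colon, or 400.5 and 1040.4 RPKM. In the RNA fragmented libraries 2650 and 45891 reads were found, or 444 and 4495 RPKM. The small intestine levels of the protocols lay close together and the colon levels did not, with RNA fragmented 4.32 times higher. Colon exceeded small intestine by 2.60 times (2.56 to 2.63) by cDNA fragmented and by 10.1 times (9.74 to 10.5) by RNA fragmented, and 14 of 14 blocks were above 1 in each. By RNA fragmented the first 7 and the last 7 blocks gave similar ratios, 10.6 and 9.83. By cDNA fragmented they gave 1.68 (1.64 to 1.73) and 2.97 (2.92 to 3.02), so the ratio was larger toward the 3′ end.

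Zg16 encodes a lectin-like protein that binds the cell wall of Gram-positive bacteria (chr7:134193670-134195491, minus strand, 3 exon blocks of 636 bases). By cDNA fragmented its level was 6019.8 RPKM in small intestine and 9838 in colon. By RNA fragmented it was 1974.5 and 1979.9 RPKM. Zg16 was among the 21 highest genes in each of the 4 libraries. The ratio was 1.63 (1.62 to 1.65) by cDNA fragmented, while by RNA fragmented no difference was detectable at 1.003 (0.955 to 1.05). A single start point held 28.1% of the RNA fragmented small intestine reads on Zg16 and a single start point 14.2% of those in colon, and without the start point with most reads in each library the ratio became 1.20. After median-of-ratios scaling it was 0.791, so its direction by RNA fragmented is not fixed by these data.

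Fcgbp encodes a large mucin-like protein of the mucus that binds the Fc part of IgG (chr7:28856255-28905883, plus strand, 20 exon blocks of 7930 bases). Its reads numbered 10279 in small intestine and 20072 in colon by cDNA fragmented, and 11250 and 11846 by RNA fragmented. The levels were 57.6 and 102 RPKM in the first protocol and 697 and 429 RPKM in the second. Colon was higher by cDNA fragmented, with a ratio of 1.77 (1.73 to 1.81), and lower by RNA fragmented, with 0.616 (0.600 to 0.632). Restricting the reads to start positions found once with up to a single mismatch gave 1.77 and 0.623. The opposite directions also stood after median-of-ratios scaling, at 1.34 and 0.486. With start points in place of reads the ratios were 1.05 and 0.633, so little of the colon excess by cDNA fragmented was left. Fcgbp had 4583 and 5049 start points in the cDNA fragmented libraries, of 12530 possible.

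The ratio of Fcgbp varied along the transcript. In the first 10 blocks from the 5′ end the cDNA fragmented ratio was 0.935 (0.877 to 0.996), below 1 as in the RNA fragmented libraries, where it was 0.575 (0.557 to 0.594). In the last 10 blocks the cDNA fragmented ratio was 1.96 (1.91 to 2.01) and the RNA fragmented one 0.693 (0.664 to 0.723). The first 10 blocks held 18.3% of the cDNA fragmented reads on Fcgbp in small intestine and 9.68% in colon, against 65.3% and 60.9% by RNA fragmented. Coverage toward the 5′ end thus differed between the cDNA fragmented libraries for this gene, and its part in the tissue ratio was not tested.

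**Figure D2:**
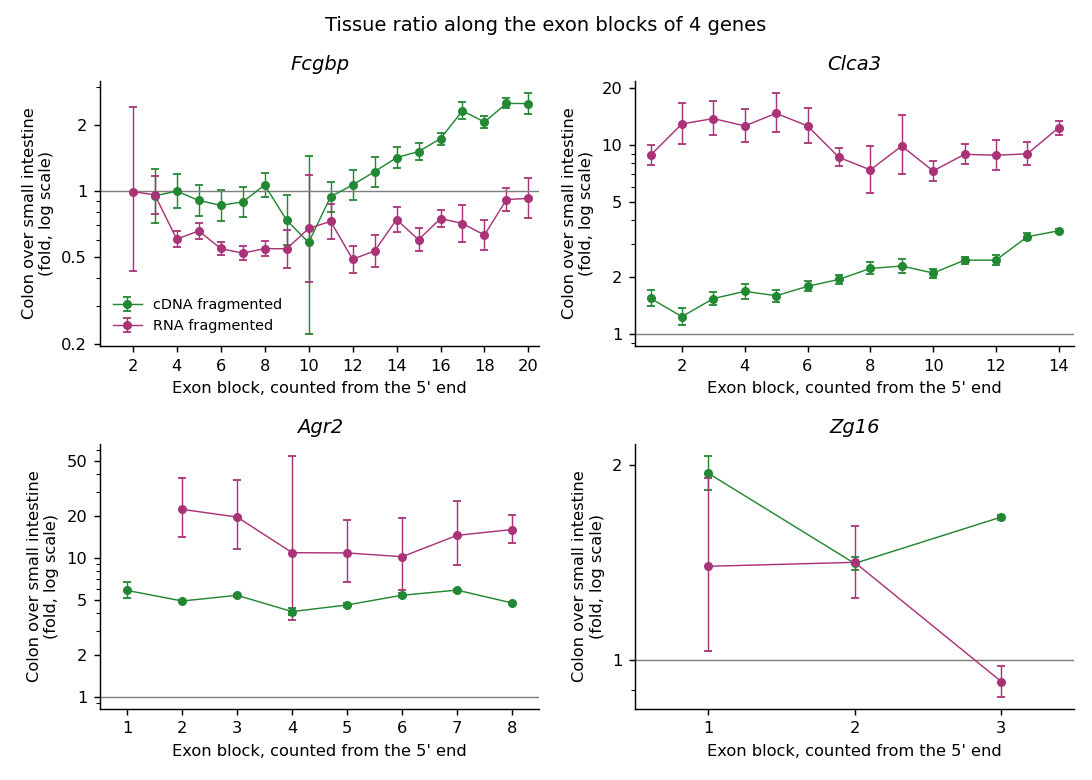
Ratio of colon to small intestine (vertical axes, fold on a log scale) in each exon block counted from the 5′ end (horizontal axes) for Fcgbp, Clca3, Agr2 and Zg16, with 95% counting intervals; blocks with under 3 reads in either library are left out. The cDNA fragmented ratios of Fcgbp and Clca3 are higher toward the 3′ end, up to 2.52 and 3.52, while those of Agr2 stay between 4.11 and 5.87.

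Tff3, the trefoil peptide of intestinal goblet cells, lies at chr17:31262252-31266556 on the minus strand with 3 exon blocks of 457 bases. Its level was 1834 RPKM in small intestine and 2393 in colon by cDNA fragmented, and 1092 and 1288 RPKM by RNA fragmented. Of the genes with reads in every library, Tff3 had the most even levels over tissues and protocols. The ratios were 1.30 (1.28 to 1.33) and 1.18 (1.09 to 1.27), which turn to 0.987 (0.968 to 1.01) and 0.930 (0.862 to 1.004) after median-of-ratios scaling. The direction of Tff3 therefore rests on the scaling, and relative to the median gene the intervals include no difference.

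Tff2, the trefoil peptide otherwise known from gastric mucous neck cells (chr17:31278007-31281227, minus strand, 4 exon blocks of 571 bases), held few reads. It had 1 read in small intestine and 53 in colon by cDNA fragmented, and 20 and 7 by RNA fragmented. The tissue order was opposite in the 2 protocols, at 48.1 (8.26 to 1933) by cDNA fragmented and 0.205 (0.0732 to 0.504) by RNA fragmented. Of the 20 RNA fragmented small intestine reads, 30% had at most 1 color mismatch, against 62.1% for Agr2 in the same library.

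Markers of pancreatic acinar cells moved with Tff2. All 5 listed genes, Cela1, Ctrb1, Pnlip, Cel and Cpa1, were past the 3-fold rule toward colon by cDNA fragmented, and 4 of 5 toward small intestine by RNA fragmented. Of all genes present in either tissue, 3.2% and 3.72% were. Cpa1 and Pnlip had 0 reads in cDNA fragmented small intestine and were present there only through colon. Ctrb1, a chymotrypsinogen, had 3 small intestine and 1773 colon reads by cDNA fragmented, and 1595 and 5 by RNA fragmented. Pnlip, pancreatic lipase, held 0 and 2229, then 1110 and 3 reads. Their summed level was 18.8 RPKM in small intestine and 739 in colon by cDNA fragmented, and 2163 and 295 RPKM by RNA fragmented. Of 9 gastric markers, 0 passed the 3-fold rule in either direction. Gkn1 with 33 reads and Gkn2 with 11 had reads only in cDNA fragmented colon, and Pgc and Atp4b had 0 in every library. Gkn3 had 53 reads in small intestine and 46 in colon by cDNA fragmented, and Gif 6 and 1. The summed gastric level was 3.23 and 4.36 RPKM by cDNA fragmented and 1.24 and 0.341 by RNA fragmented. The part of tissue other than intestinal wall in the Tff2 values was not tested.

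**Figure D3:**
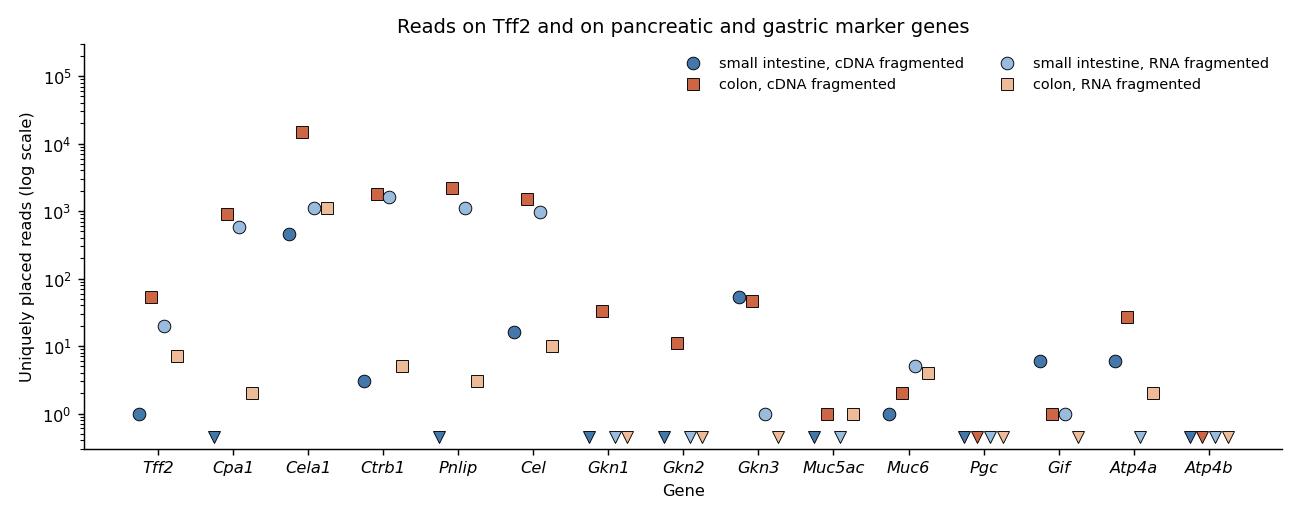
Uniquely placed reads (vertical axis, log scale) on Tff2, 5 pancreatic acinar genes and 9 gastric genes in the 4 libraries, with triangles at the lower edge for 0 reads. In cDNA fragmented libraries the colon point is above the small intestine point for Tff2 and the 5 acinar genes, but not for Gkn3 and Gif among the gastric ones, and in RNA fragmented libraries Cpa1, Ctrb1, Pnlip, Cel and Tff2 show the opposite order.

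Retnlb encodes resistin-like molecule beta, a bactericidal protein of colonic goblet cells (chr16:48816969-48819004, plus strand, 4 exon blocks of 695 bases). The small intestine had 4 reads on it and the colon 4095 by cDNA fragmented, and by RNA fragmented 0 and 237. The levels were 0.256 and 238 RPKM in the first protocol, and 98.0 RPKM in RNA fragmented colon. No other gene of the group was so one-sided by both protocols. The cDNA fragmented ratio was 928 (362 to 3408). By RNA fragmented, colon was at least 46.2-fold higher against a floor of 3 reads in the small intestine library, and with the counting error of both libraries the lower 95% limit of the ratio was 37.3. The related Retnla, another resistin-like gene, had 5 and 196 reads by cDNA fragmented, a ratio of 35.5 that passed the 3-fold rule, and 0 and 6 by RNA fragmented.

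**Figure D4:**
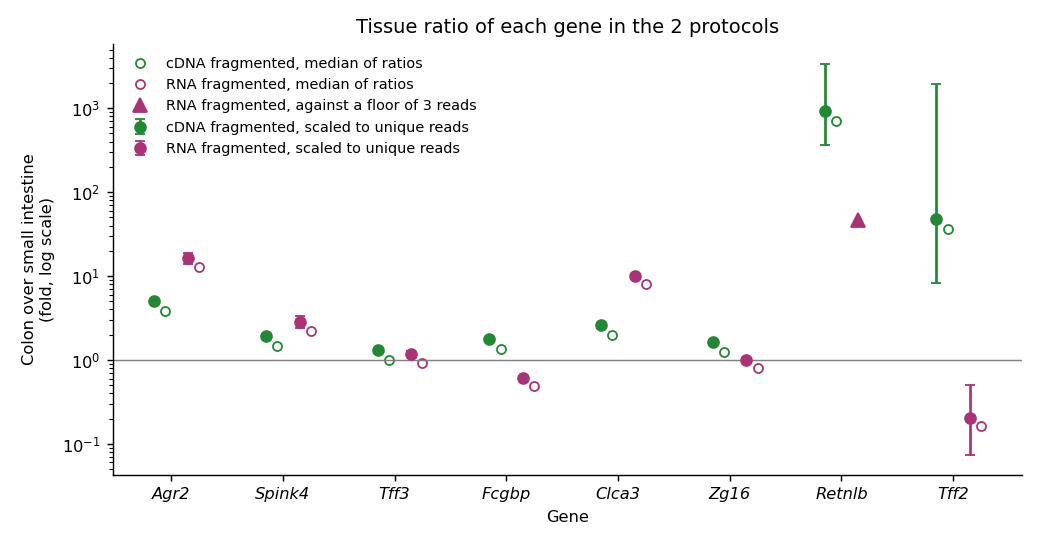
Ratio of colon to small intestine (vertical axis, fold on a log scale) of 8 genes by cDNA fragmented and RNA fragmented sequencing, as filled points scaled to uniquely placed reads with 95% counting intervals and as open points after median-of-ratios scaling; the filled triangle is the ratio of 46.2 for Retnlb against a floor of 3 reads. Points on the 2 sides of the line at 1 are seen for Fcgbp and Tff2, as they are for the open points of Zg16, at 1.24 and 0.791, and the open points of Tff3 lie just under the line.

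With scaling to uniquely placed reads, the counting intervals of the ratio in the 2 protocols did not overlap for 7 of the 8 genes with reads; Retnlb, for which RNA fragmented gave only a bound, was the exception. With median-of-ratios scaling those of Tff3 overlapped too, which left 6. The size of the tissue ratio thus differed between the protocols by more than counting error for most of these genes. The share of all genes without overlap was not computed, and counting intervals are narrow where reads are many. These counts are therefore no trait of the group. Agr2 and Clca3 had ratios 3.22 and 3.90 times larger by RNA fragmented, whereas those of Fcgbp and Zg16 were 2.87 and 1.63 times larger by cDNA fragmented.

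The study used a 3-fold rule on FPKM of transcripts. It was applied here to RPKM of genes, the value of a tissue being divided by that of the other plus a penalty of 1. A gene present in a single tissue meets the presence minimum only where it is higher. The genes counted are therefore the 7 present in both tissues of a protocol, with over 0.01 RPKM and 2 or more start points in each. By cDNA fragmented, Agr2 and Retnlb passed it toward colon, 2 of 7 genes, and 0 passed toward small intestine. Tff2, with 1 small intestine read, was present only through colon; it also lay past the rule, though not with median-of-ratios scaling. Over the 16546 genes present in either tissue, 3.2% passed toward colon and 2.72% toward small intestine, or 2.1% and 3.54% with median-of-ratios scaling, and over the 15190 present in both 3.25% and 2.81%. By RNA fragmented, Agr2 and Clca3 passed toward colon and Tff2 toward small intestine. Of 15130 genes 6.6% and 3.72% did, or 4.23% and 5.04% with median-of-ratios scaling, and of the 13149 present in both tissues 6.4% and 3.86%. Retnlb, with 0 small intestine reads, was present only through colon and is not counted. With start points in place of reads, Agr2 no longer passed in either protocol, nor Clca3 by RNA fragmented. With at most 1 color mismatch Tff2 no longer passed by RNA fragmented, and in the last exon block alone Clca3 passed by cDNA fragmented as well. The median ratio of the 7 genes was 1.94 by cDNA fragmented and 1.18 by RNA fragmented, beside 1.31 and 1.26 over all genes present in both tissues. The 7 genes differ between the protocols, with Retnlb only in the first set and Tff2 only in the second, so these medians are not comparable. Over the 8 genes with reads, with 0.5 reads added, the medians were 2.24 and 1.82. Over all genes present in either tissue they were 1.35 and 1.32.

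All 4 libraries were fitted together with limma, with the protocol as a block. Each difference was set against a spread drawn mainly from all genes. The fit took genes with at least 10 reads in at least 2 libraries. Retnlb met this minimum only through the 2 colon libraries, where it was high, so the fit is no test of it and it is not counted. Of the other 7 genes, Agr2 and Clca3 rose in colon, as 7.48% of 13897 genes did, and 0 fell, beside 7.32% of all genes. At an unadjusted p under 0.05 by limma 0 fell as well, where 3644 of all genes passed in either direction. Both percentages include genes that met the minimum through a single tissue. In numbers, 1040 genes rose and 1017 fell, or 1526 and 733 without scaling factors beyond the read totals. The log2 difference, colon minus small intestine, was 2.80 ± 0.39 (SE) for Agr2, with a Benjamini-Hochberg adjusted p of 2.81e-07, and 2.07 ± 0.38 for Clca3 (limma, adjusted p = 5.53e-05). The fitted difference of Retnlb, 8.77, rests on 4 and 0 reads in small intestine, so its size depends on how low counts are treated. Spink4 had 0.91 ± 0.37 and did not pass (limma, adjusted p = 0.0995), but passed at 1.23 without the scaling factors (limma, adjusted p = 0.0356). Values for Tff3 (0.03 ± 0.36), Zg16 (0.08 ± 0.36), Fcgbp (-0.22 ± 0.37) and Tff2 (0.89 ± 0.997) were within 1 SE of 0. Their 95% intervals, -0.69 to 0.75 for Tff3, -0.65 to 0.80 for Zg16, -0.98 to 0.53 for Fcgbp and -1.12 to 2.90 for Tff2, leave differences of either sign possible. The fit has 1 residual degree of freedom per gene, against a median of 42.8 in total, so it borrows most of the spread from all genes. Its intervals need not cover the disagreement of a gene's own protocols. That of Fcgbp leaves out both the value by RNA fragmented alone, -1.05, and that by cDNA fragmented alone, 0.61. Passing the fit therefore does not show that a difference exceeds this disagreement. The p-values measure the spread between these libraries, which may be technical.

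Other genes of the goblet cell were read from 2 lists. The first holds further secretory products and enzymes, of which 12 of 13 were found by name; Muc2 was not among the named genes. In the limma fit 11 of them met the read minimum with libraries of both tissues, and of these 6 rose in colon, Klk1, Capn9, Bcas1, Fut2, B3gnt6 and Muc4, and 0 fell, also at an unadjusted p under 0.05. Muc1, a membrane mucin, met it only through colon, with 7 and 156 reads by cDNA fragmented and 1 and 10 by RNA fragmented, and is not counted. The median log2 difference of the 11 was 1.33, beside 0.10 over all genes tested. Of all genes tested, 7.48% rose in colon and 7.32% fell. Klk1, a kallikrein protease, had ratios of 30.3 by cDNA fragmented and 14.5 by RNA fragmented. Fut2, a fucosyltransferase that decorates mucins, had 40.1 and 177, the latter on 3 reads in small intestine. Galnt7, an enzyme that starts O-glycan chains, had 1.82 and 3.70. Muc13, a membrane mucin that enterocytes share, had 0.638 and 1.12 and did not pass.

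The second list holds transcription factors and endoplasmic reticulum machinery of secretory cells. Of 11 genes, 6 rose in colon, Spdef, Atoh1, Gfi1, Foxa2, Ern2 and Creb3l1, and 0 fell, also without adjustment of p, with a median log2 difference of 1.73. Over all genes tested, 7.48% rose and 7.32% fell. Spdef, a factor of goblet cell maturation, had ratios of 7.06 and 9.66, and Ern2, an endoplasmic reticulum stress sensor of mucous cells, 8.97 and 6.89. Xbp1, a factor of the unfolded protein response, had 0.899 and 1.87, and Klf4, a factor of epithelial differentiation, 2.30 and 1.57. Agr3, of the family of Agr2, had 0.714 and 0.195, the latter on 3 and 1 reads. The ratio was above 1 for 9 of the 11 genes by cDNA fragmented and for 10 by RNA fragmented. Of 9 genes of the members' own families tested by limma, with a median log2 difference of -1.07, 0 rose in colon (1 at an unadjusted p under 0.05), and Clca2, Clca6 and Spink3 were higher in small intestine. Spink3, a trypsin inhibitor of pancreas and intestine, was 5.16 and 2.61 times higher there, and Clca6 1.75 and 2.37 times. Clca4 had ratios of 0.629 and 2.03.

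**Figure D5:**
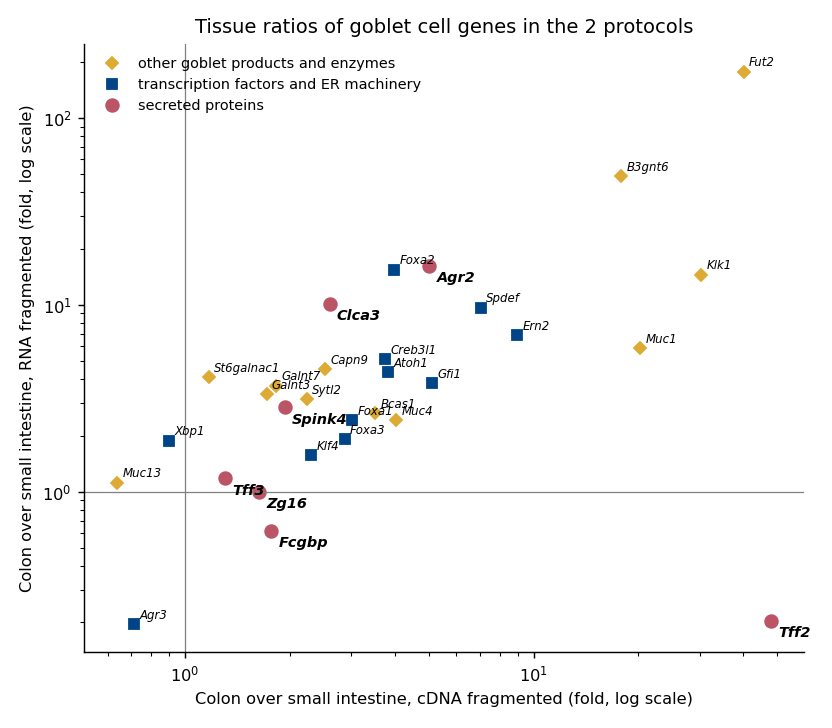
Ratio of colon to small intestine by cDNA fragmented (horizontal axis) and RNA fragmented (vertical axis), both as fold on log scales, for the secreted proteins and the genes of 2 goblet cell lists; Retnlb is not drawn because its RNA fragmented ratio is a bound. Most listed genes lie above 1 on both axes, and Agr2 and Clca3 lie among them, whereas Zg16 and Tff3 lie near 1 by RNA fragmented and Fcgbp and Tff2 below it.

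Other cell types differed between the tissues as well. In the limma fit, 7.48% of all genes tested rose in colon and 7.32% fell. Smooth muscle genes, read from Actg2, Acta2, Des and Myh11, rose in colon in 4 of 4 cases, with Acta2 3.33 and 7.89 times higher. Of 5 Paneth cell genes 4 were higher in small intestine, among them Itln1 by 431 and 59.4 times and Lyz1 by 150 and 36.3 times. Of 6 general epithelial genes, Krt20 and Vil1 were higher in small intestine, Vil1 by 3.67 and 3.36 times, and 4 did not pass. Epcam, an adhesion molecule of epithelia, had ratios of colon to small intestine of 0.639 and 0.909 and Cdh1, E-cadherin, 1.14 and 0.716. The keratins Krt8 and Krt18 had 1.55 and 2.20, and 2.27 and 2.73, with limma adjusted p of 0.294 and 0.0548. Gcg and Pyy of 6 enteroendocrine genes rose in colon and Cck was higher in small intestine. Ptprc and Cd3e of 4 immune genes were higher in small intestine, and 0 of 4 tuft cell genes passed, with 0 of them at an unadjusted p under 0.05 in limma. The part of tissue composition in the values of the secreted proteins was not tested.

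The order of levels within each library was compared per exon length. In cDNA fragmented small intestine it ran Zg16, Spink4, Agr2, Tff3, Clca3, Fcgbp, Retnlb, Tff2, and in cDNA fragmented colon Agr2, Zg16, Spink4, Tff3, Clca3, Retnlb, Fcgbp, Tff2. By RNA fragmented it ran Zg16, Tff3, Fcgbp, Clca3, Spink4, Agr2, Tff2 in small intestine and Clca3, Zg16, Agr2, Tff3, Spink4, Fcgbp, Retnlb, Tff2 in colon. Agr2 and Spink4, with short exon blocks, stood higher in the cDNA fragmented orders, and Fcgbp, with 7930 bases, stood higher by RNA fragmented. Tff3, with 457 bases, went the other way in small intestine, 4th by cDNA fragmented and 2nd by RNA fragmented. In colon Tff3 was 4th by both. A link of place with exon length was not tested. Counting intervals of neighbours overlapped only for Retnlb and Tff2 in cDNA fragmented small intestine. Junctions held 0.754% to 0.822% of uniquely placed reads, and reads on them were not counted, so RPKM may understate genes of short exons. How many reads that cross an exon border were left unplaced was not measured. Per start position found once in place of per length, Spink4 moved above Zg16 in both cDNA fragmented libraries and Agr2 above Zg16 in RNA fragmented colon.

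The genes whose pattern over the 4 libraries lay nearest were found among 5310 genes with at least 50 reads in every library, by Euclidean distance in log2(RPKM + 1) centred on the mean of each gene. The nearest gene was Rtp4 for Zg16 at a distance of 0.0561, Spr for Tff3 at 0.107, Esrra for Fcgbp at 0.179, Rps27 for Spink4 at 0.435, Mfsd4 for Clca3 at 0.480 and Higd1a for Agr2 at 1.53. Agr2 thus had the least similar nearest gene of the 6.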

How the data were processed

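The authors matched reads of 35 colors to RefSeq exons of mm9 and to exon junctions, allowed at most 3 mismatches, and kept uniquely placed reads. The deposited files hold, by the authors' layout, read positions, strands and mismatches (no count, level or score), the numbers of reads per library, and tables of exon and junction positions. The study's methods name the BioScope software for its genome-wide matching, while the software behind the exon matching is not given in the sources used here.

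Uniquely placed reads were counted per exon block with 3 bases of tolerance at borders, on 199684 of 200217 blocks, which were named through GENCODE M1 on mm9 (20791 of 20962 genes). Reads on junctions were not counted. RPKM used the uniquely placed reads of a library. Ratio intervals were exact conditional binomial and level intervals exact Poisson. Presence required over 0.01 RPKM and 2 or more start points in either tissue. Start positions found once were obtained with bwa 0.7.19-r1273.

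A count model was planned for the fit with protocol as block. The deposited files hold read positions, the counts were made here from them, and limma 3.58.1 (voom, R 4.3.3) was used in place of the count model on genes with at least 10 reads in at least 2 libraries, with trimmed mean of M values scaling and Benjamini-Hochberg adjustment at 0.05. The fit was also run on simulated data, whose outcome is not given here and is not used as support. Named genes were the 9 members, up to 4 genes of each list with the highest mean RPKM, and the nearest gene in pattern. Other list genes were named after their values were seen. The members and lists were chosen with earlier results of these data known. The study's methods describe polyadenylated RNA for the RNA fragmented protocol, and the labels were followed here. The RNA fragmented libraries used here held 36419942 (small intestine) and 37466674 (colon) reads in total. The study reports larger totals and longer reads for its RNA fragmented libraries, so these need not be the libraries that it describes. Alternatives are given in the closing section.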

Additional observations from a re-analysis of the deposited data

Results flagged for a closer look

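The direction of the tissue difference was opposite in the 2 protocols for 2 genes, with counting intervals on opposite sides of 1 when scaled to uniquely placed reads. The ratio of colon to small intestine of Fcgbp was 1.77 by cDNA fragmented and 0.616 by RNA fragmented. With start points in place of reads it was 1.05 and 0.633. That of Tff2 was 48.1 by cDNA fragmented, on 1 and 53 reads, and 0.205 by RNA fragmented, on 20 and 7 reads. With median-of-ratios scaling Zg16 was opposite as well, at 1.24 and 0.791. With 1 library per tissue and protocol, the difference between the protocols was not tested beyond counting error.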

How the results depend on the processing

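Among tissue ratios with reads in both tissues, those whose interval excluded 1 kept their direction with at most 1 color mismatch. Zg16 by RNA fragmented, whose interval included 1, was 0.940 there, 0.927 in the last exon block, 0.755 with start points in place of reads and 0.915 without Lars2 reads in the total. Median-of-ratios scaling turned Tff3 to 0.987 by cDNA fragmented and 0.930 by RNA fragmented, and reads in the last exon block only turned Tff3 to 0.971 by RNA fragmented. Counting start points in place of reads turned Agr2 to 0.964, Spink4 to 0.955, Tff3 to 0.932, Clca3 to 0.983 and Zg16 to 0.938 by cDNA fragmented and Tff3 to 0.816 by RNA fragmented, where few unused positions were left by cDNA fragmented (995 and 1004 start points on Agr2 against 976 possible inside its blocks, with reads that overhang a border counted too). By RNA fragmented, start points gave 2.41 for Agr2, with 317 of them in colon, 1.64 for Clca3 and 1.15 for Spink4. Counted over all 9 genes, those present in a single tissue included, the number past the 3-fold rule by RNA fragmented went from 1 to 0 toward small intestine with at most 1 mismatch, when Tff2 was lost, and from 3 to 1 toward colon with start points, when Retnlb was left. By cDNA fragmented, the 3 toward colon became 2 with median-of-ratios scaling, 2 with start points, when Agr2 was lost, and 4 in the last exon block, when Clca3 was added. For the mismatch, start-point and last-block settings no share over all genes is given. These numbers therefore show only which named genes changed and are no trait of the group. A penalty of 0.1 RPKM moved none of these numbers for the 9 genes, while over all genes it raised the shares toward colon to 8.26% by cDNA fragmented and 16.3% by RNA fragmented. Reads on the annotated strand only, and thinning of the cDNA fragmented libraries, changed no direction. Leaving Lars2 out, chosen after the data were seen, changed no other direction.

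In the limma fit 2057 genes passed, within 1.5 times of which the alternatives stayed, and Agr2 and Clca3 passed under each. Without scaling factors beyond the read total, an alternative added after the data were seen, Spink4 passed at 1.23 on the log2 scale (limma, adjusted p = 0.0356) and Fcgbp, which did not pass, was 0.06. The limma trend fit, also added later, took the place of the planned DESeq2 fit, which was not run. Without 1 library in turn, only the other protocol gives a value and no test remains: Agr2 lay between 2.11 and 3.66, Clca3 between 1.16 and 2.99, Retnlb between 7.77 and 9.47, Zg16 between -0.35 and 0.49, Fcgbp between -1.05 and 0.61 and Tff2 between -2.58 and 4.80. The fit pairs the tissues within a protocol. No paired analysis by replicate number was possible because each tissue and protocol has 1 library and the labels give no such numbers. Depth limits Tff2 and the small intestine values of Retnlb.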
